A study of Mus musculus with 4 samples.

Results

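Mesenchymal cells are recognized by proteins on their surface, by their intermediate filaments and by the matrix they secrete. The 10 genes described here are such markers in the cells of the brain vasculature. They were taken by symbol from the deposited table, which lists 24873 genes, and were sorted by role. Cd44, Thy1, Mme and Nt5e encode surface proteins, Vim and S100a4 encode a filament protein and a small calcium-binding protein, and Fn1, Postn, Dcn and Lum encode proteins of the extracellular matrix. All 10 were listed in the table, and all 10 were among the 20485 genes tested.

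RNA-Seq was performed on cerebral cells of mice with the genotype Cdh5cre;Mgpflox/flox, 2 libraries without tamoxifen (control) and 2 libraries with tamoxifen. In these mice the Cdh5 promoter drives a tamoxifen-activated Cre recombinase in endothelial cells, and Mgp, which encodes an inhibitor of bone morphogenetic proteins in the matrix, carries loxP sites in both groups. Per the study's methods, tamoxifen was injected at 75 mg/kg for 5 days from 10 weeks of age, cells were taken on day 9, and the cells of 3 mice were pooled for each library. The series calls the cells CD31+CD45-, whereas the sample labels call them brain tdTomato+. With no tamoxifen-treated mice that lack the floxed Mgp or the Cre among these libraries, the effect of tamoxifen and Cre cannot be told apart from that of the deletion.

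In quiescent endothelium most mesenchymal markers are low, but Vim and Fn1 are not particular to mesenchymal cells. Vimentin is the main intermediate filament of endothelial cells, and endothelial cells secrete fibronectin. During an endothelial-mesenchymal transition, endothelial cells lose junction proteins and express surface, filament and matrix genes of mesenchymal cells. Several of the same genes also mark other cells that can be found in brain tissue or blood. Thy1 is made by neurons and T cells, Cd44 and S100a4 by leukocytes, and Dcn and Lum by the fibroblasts of the meninges. The human counterpart of Mme is made by B-cell precursors and neutrophils, and whether the mouse gene is was not examined here.

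The libraries held between 35387438 and 49799321 reads on genes. Normalized counts summed to 5.13e+07 in each control library and to 3.84e+07 and 3.58e+07 in the tamoxifen libraries, so a share of a library and a normalized count do not move alike. Mgp, the gene targeted by the Cre, had 1094 and 1352 normalized counts in control against 945 and 909 with tamoxifen, a log2 fold change of -0.39 (SE 0.18, adjusted p = 0.0986) that was not called. By real-time PCR, the study reported a progressive fall of Mgp after tamoxifen in such mice and read it as efficient deletion. These libraries alone do not show the deletion, and the difference between the measures was not tested. Of the genes of the sort, Pecam1 (CD31) was lower with tamoxifen (83681 and 88796 against 15987 and 8973) and Ptprc (CD45) was higher (50.7 and 83.9 against 1423 and 1119). All 10 endothelial markers examined fell, and their summed level went from 917159 to 942780 in control to 80931 to 159447 with tamoxifen. The tamoxifen libraries carry an A in their column names, which no sample label explains, and this letter was read as the tamoxifen group with the values already known.

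Promoter sequence is shown for 4 genes whose upstream regions differ in kind. Among the matrix genes, the number of CpG sites differed most between Fn1 on one side and Dcn and Lum on the other. S100a4, which is not a matrix gene, is shown beside them. Mme, not shown, had more CpG sites than Fn1 and was called higher with tamoxifen. No link between promoter sequence and direction of change was tested. The 100 bases before the canonical transcription start were read from GRCm39, 5′ to 3′ on the strand of the gene. Capitals mark a TATA box (TATAAA) in S100a4 and a GC box (GGGCGG) in Fn1, and no motif searched was found in the windows of Dcn and Lum.
S100a4, chr3:90510975-90511074, plus strand: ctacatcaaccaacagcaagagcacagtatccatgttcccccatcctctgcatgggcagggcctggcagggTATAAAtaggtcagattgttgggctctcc
Fn1, chr1:71692420-71692519, minus strand: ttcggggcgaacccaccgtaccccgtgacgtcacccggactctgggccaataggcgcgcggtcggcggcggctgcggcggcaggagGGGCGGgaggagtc
Dcn, chr10:97315175-97315274, plus strand: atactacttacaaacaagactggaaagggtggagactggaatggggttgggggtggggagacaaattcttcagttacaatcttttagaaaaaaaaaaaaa
Lum, chr10:97400890-97400989, plus strand: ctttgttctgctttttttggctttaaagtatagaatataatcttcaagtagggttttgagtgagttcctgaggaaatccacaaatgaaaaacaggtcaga

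Over the window from 250 bases before to 50 bases after the start, the promoters of Dcn and Lum were 38.0% and 37.3% G and C and held 0 CpG sites each. The median over 16621 promoters was 57.0% and 15 CpG sites, and the lowest 5% lay under 42.0% and 2 sites. The promoter of S100a4 held 2 CpG sites, and those of Cd44, Thy1, Postn and Nt5e held 5 or 6. At the other end, Mme had 31 and Fn1 27 CpG sites, while Vim, with 14, was close to the median. On either strand, TATAAA was found in 3 of the 10 windows (S100a4, Postn and Nt5e) and in 9.41% of all windows. Relative to the start, its first base lay at -29 in S100a4, at 2 in Postn and, on the opposite strand, at -186 in Nt5e. The windows were searched for the letters at any position, so the count is not one of TATA boxes in use. GGGCGG was found in 3 (Cd44, Mme and Fn1) and in 52.5%. The AP-1 type motif TGANTCA was found in Mme alone among the 10, against 5.95% of all windows. CACCTG, the E-box bound by SNAIL and ZEB factors, was found in 0 of the 10 and in 20.1% of all windows, which says only that these letters are not in these windows.

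To determine how the markers differed between the groups, log2(normalized count + 1) was compared with limma, and a gene was called at an adjusted p under 0.05 with a log2 fold change over 1 in size. Of the 10 markers, 8 were called higher with tamoxifen, namely Cd44, Thy1, Mme, Nt5e, S100a4, Postn, Dcn and Lum. Over all genes tested, 28.6% were called higher. By limma 0 of the 10 were called lower, against 16% of all genes, and at an unadjusted p under 0.05, or as called by edgeR or DESeq2, 1 was lower (Fn1). Vim and Fn1, the most abundant of the 10, were the exceptions. In 8 markers both tamoxifen libraries lay above both control libraries, as in 43.1% of all genes, and in Fn1 alone both lay below, as in 39.2%. The median log2 fold change was 3.65 over the 10 markers and 0.05 over all genes tested. Of the called genes, 64.1% were higher, but this share was 79.7% with every library scaled to the same total and 47.2% after quantile normalization, and these scalings moved the median of all genes by 0.47 and -0.25 on the log2 scale.

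Cd44, Thy1, Mme, S100a4 and Postn were among the genes that the study chose for display from these libraries, so the direction of these 5 is not independent evidence. Of the 5 markers that were not, 3 were called higher (Nt5e, Dcn and Lum). These 5 were also chosen with earlier results of these data known, so their direction is not independent evidence either. With 2 libraries in each group an exact permutation test cannot go below p = 0.333, and the adjusted p-values measure the spread between these pooled libraries only. In such bulk samples fewer cells of a type and less RNA per cell cannot be told apart.

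**Figure D1:**
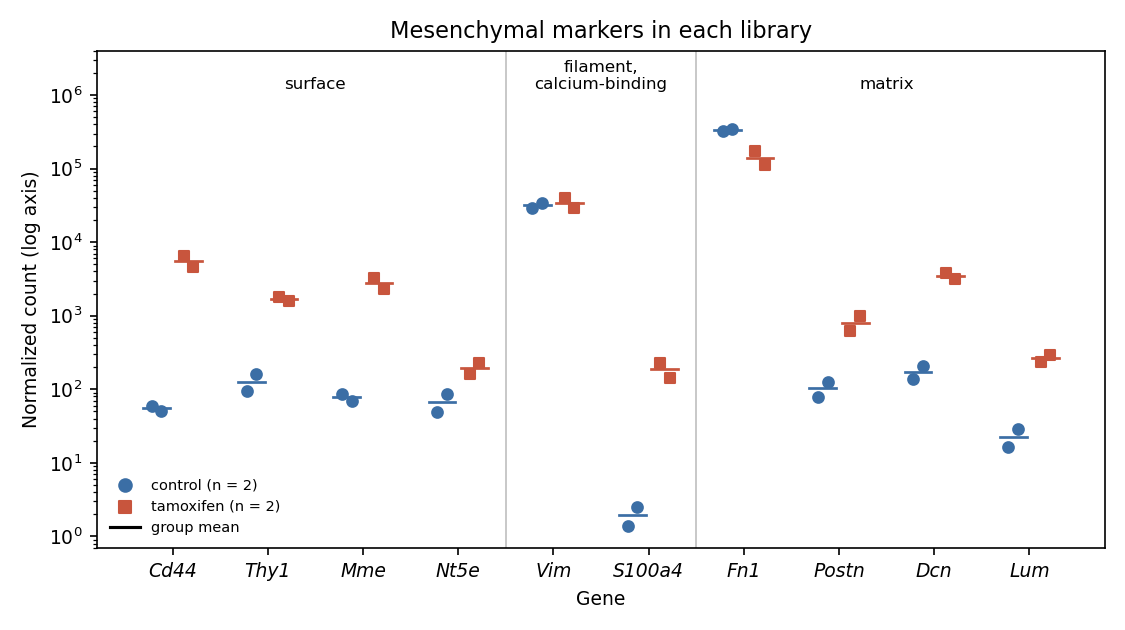
Normalized count of each of the 10 markers (log axis) in the 2 control libraries (circles) and the 2 tamoxifen libraries (squares), with a line at each group mean. Between Cd44 and Lum the groups are separated for all genes but Vim, and Fn1 is the 1 gene whose tamoxifen libraries lie below the control libraries.

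Among the surface markers, Cd44, the receptor for hyaluronan, had the largest difference. It was at 58.9 and 51.3 normalized counts in control and at 6425 and 4571 with tamoxifen. The groups were far apart, and tamoxifen 1 was the higher of its pair. Mean levels were 55.1 ± 5.36 and 5498 ± 1310 (SD, n = 2), a ratio of 99.8. On the log2 scale the difference was 6.60 (SE 0.24, 95% interval 6.04 to 7.16, adjusted p = 3.8e-06). By level within a library, Cd44 moved from place 13298 and 13662 of all listed genes to place 1156 and 1747.

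Mme encodes neprilysin (CD10), a membrane metallopeptidase that cleaves peptides outside the cell. It was at 86.3 and 70.1 normalized counts in control and at 3244 and 2288 with tamoxifen. As for Cd44, control 1 and tamoxifen 1 were the higher libraries of their groups. The log2 fold change was 5.11 (SE 0.26, 95% interval 4.51 to 5.72, adjusted p = 9.7e-06), and the ratio of the means was 35.4.

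Thy1, a small glycoprotein held in the membrane by a lipid anchor, was at 94.5 and 160.2 in control and at 1777 and 1590.2 with tamoxifen. The tamoxifen libraries were close to each other, and the control libraries differed by a ratio of 1.70. Thy1 rose by 3.76 on the log2 scale (SE 0.29, 95% interval 3.08 to 4.44, adjusted p = 5.2e-05).

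Nt5e encodes CD73, the enzyme that makes adenosine from AMP on the cell surface. It was at 49.3 and 85.1 in control and at 160.4 and 229 with tamoxifen. Of the 8 markers that rose, Nt5e had the smallest difference, with a log2 fold change of 1.55 (SE 0.44, 95% interval 0.53 to 2.57, adjusted p = 0.0175) and a ratio of the means of 2.90. It was no longer called without tamoxifen 1 (1.81, adjusted p = 0.117), without tamoxifen 2 (1.29, adjusted p = 0.203) or after quantile normalization (0.36, adjusted p = 0.488).

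On the deposited normalization, Vim did not differ beyond the spread of its libraries. Its normalized counts were 29345 and 33916 in control and 39534 and 29116 with tamoxifen. The groups overlapped, since the tamoxifen libraries held both the highest and the lowest value. The log2 fold change was 0.10 (SE 0.25, 95% interval -0.48 to 0.69, adjusted p = 0.739). As a share of all normalized counts, Vim made up 0.0572% and 0.0661% in control and 0.103% and 0.0813% with tamoxifen. On this share the groups did not overlap. With equal totals the log2 fold change was 0.58 (adjusted p = 0.0458), under the size required for a call. After quantile normalization it was 1.01 (adjusted p = 0.00417), and Vim was called higher. Without tamoxifen 1 it was -0.12.

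S100a4, a calcium-binding protein also known as fibroblast-specific protein, was nearly absent from the control libraries. It had 1 and 2 reads there (1.37 and 2.50 normalized counts) and 213 and 196 reads with tamoxifen (231 and 141 normalized counts). From the pooled reads, with depth taken into account, the ratio was 90.1 (exact 95% interval 30.6 to 439, counting error only). The log2 fold change was 5.98 (SE 0.59, 95% interval 4.60 to 7.36, adjusted p = 0.00013). S100a4 was the 1 marker with a control mean under 10 normalized counts, so it passed the filter on low values through the tamoxifen libraries. The annotation holds a read-through gene on the same strand over S100a4, Gm42674, whose counts are not in the table used here.

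Fn1 was the most abundant of the markers. Its normalized counts were 325531 and 341418 in control and 171817 and 110722 with tamoxifen. The groups did not overlap, tamoxifen being the lower, and the means differed by a ratio of 2.36, but the tamoxifen libraries differed between themselves by a ratio of 1.55. The log2 fold change of -1.27 (SE 0.50, 95% interval -2.44 to -0.11, adjusted p = 0.0598) was not called. It was called with edgeR (-1.25, adjusted p = 0.0289), with DESeq2 (-1.22, adjusted p = 7.0e-06), without the filter on low values (adjusted p = 0.0409) and without the variance trend (adjusted p = 0.0298), and not in the other 11 alternatives. By level, Fn1 stood at place 3 and 4 among all genes in control 1 and 2, and at place 5 and 6 with tamoxifen. Its share of all normalized counts was 0.634% and 0.665% in control and 0.448% and 0.309% with tamoxifen.

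The other 3 matrix genes rose from low levels. Dcn encodes decorin, a proteoglycan that binds collagen fibrils and TGF-beta. It was at 137 and 206.5 in control and at 3828 and 3183 with tamoxifen, a log2 fold change of 4.37 (SE 0.24, 95% interval 3.80 to 4.93, adjusted p = 1.3e-05). The ratio of the means, 20.4, was the largest of the matrix genes.

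Lum encodes lumican, a proteoglycan of the same family. It was at 16.4 and 28.8 in control and at 234 and 295 with tamoxifen, with a log2 fold change of 3.53 (SE 0.47, 95% interval 2.44 to 4.63, adjusted p = 0.000486). Dcn and Lum lie 42.8 kb apart on the plus strand of chromosome 10. Dcn was higher in tamoxifen 1 and Lum in tamoxifen 2.

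Postn encodes periostin, a fasciclin domain protein of remodelled matrix. It was at 79.4 and 127.7 in control and at 613 and 1004 with tamoxifen, a log2 fold change of 2.95 (SE 0.36, 95% interval 2.11 to 3.79, adjusted p = 0.000314). The tamoxifen libraries differed by a ratio of 1.64 with tamoxifen 2 the higher. Without tamoxifen 2, neither Postn (2.59, adjusted p = 0.0556) nor Lum (3.37, adjusted p = 0.0549) was called, and with Nt5e also lost the count of called markers was 5.

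**Figure D2:**
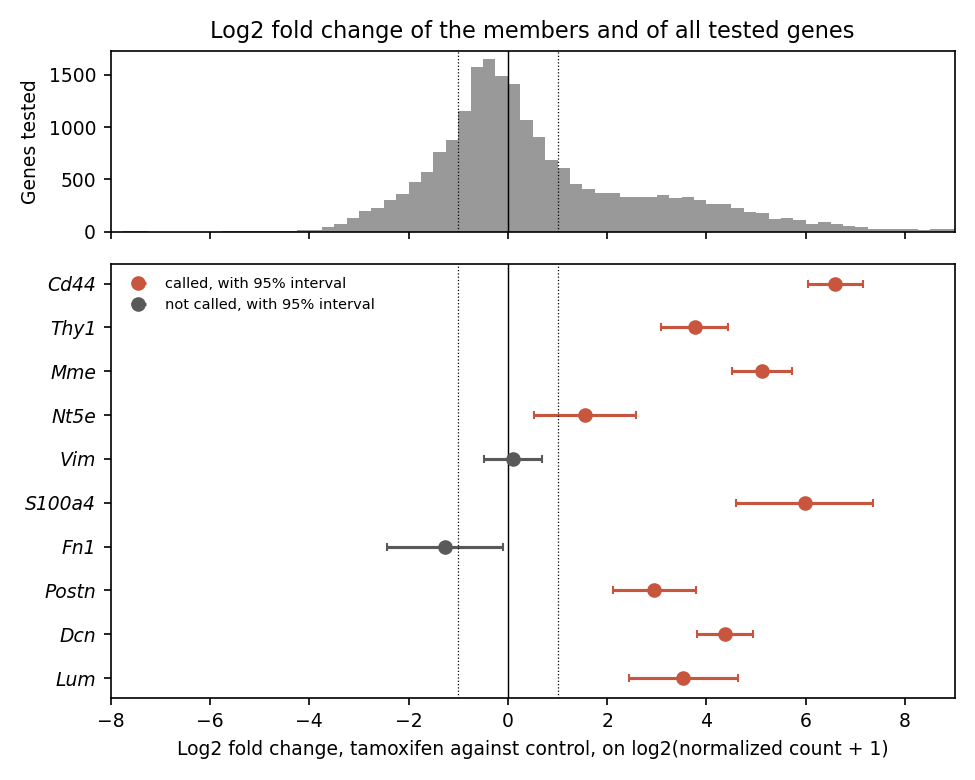
Upper panel, number of tested genes by log2 fold change (tamoxifen against control). Lower panel, log2 fold change of each marker on log2(normalized count + 1) with its 95% interval from limma, called genes in red, dotted lines at -1 and 1. The 8 called markers lie between 1.55 and 6.60, Vim lies at 0.10, and the interval of Fn1 reaches from -2.44 to -0.11.

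Fn1 and Vim dominated the summed level of the 10 genes. All markers together made up 0.692% and 0.732% of the normalized counts in control and 0.594% and 0.428% with tamoxifen. The remaining 8 summed to 523 and 732 normalized counts in control and to 16513 and 13303 with tamoxifen. Thus the sum of the group was lower with tamoxifen while that of the 8 other markers was higher in each tamoxifen library than in either control library.

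Within the tamoxifen group, tamoxifen 1 was the higher library for Cd44, Thy1, Mme, Vim, S100a4, Fn1 and Dcn, and tamoxifen 2 for Nt5e, Postn and Lum. Within the control group, control 2 was the higher for all markers except Cd44 and Mme. The ratio between tamoxifen libraries was largest for S100a4 (1.64), Postn (1.64) and Fn1 (1.55) and smallest for Thy1 (1.12).

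Levels were compared between genes as normalized counts per kilobase of exon. In control, Fn1 (21065) and Vim (6656) stood far above Thy1 (28.4), Dcn (13.2), Postn (11.8), Cd44 (8.13), Nt5e (7.67), Mme (6.59), Lum (3.52) and S100a4 (2.13). The libraries overlapped between Dcn and Postn, between Cd44 and Nt5e, between Nt5e and Mme, and between Lum and S100a4, so these neighbours in the order did not differ beyond their spread. With tamoxifen the levels per kilobase were 8924 for Fn1 and 7223 for Vim, which overlapped, followed by Cd44 (811), Thy1 (376), Dcn (269), Mme (233), S100a4 (205), Postn (92.4), Lum (41.3) and Nt5e (22.2). Dcn overlapped with Mme, and Mme with S100a4. Cd44 thus moved from the sixth to the third place and S100a4 from the last to the seventh, while Nt5e moved from the seventh to the last. With the longest transcript as the length, Cd44 and Nt5e exchanged places in control and the order with tamoxifen was the same.

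**Figure D3:**
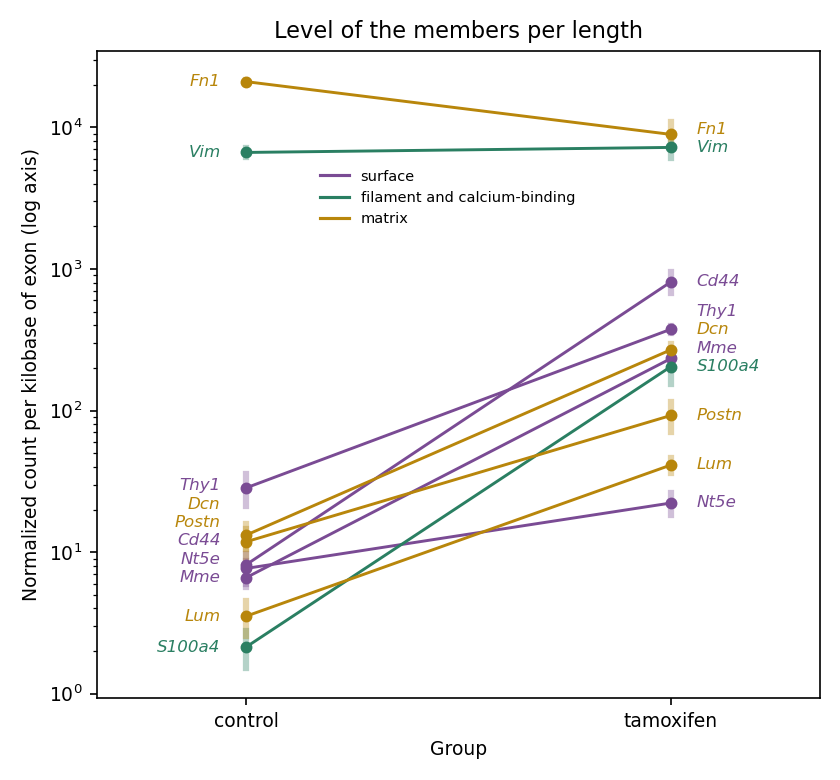
Mean normalized count per kilobase of exon (log axis) of each marker in control and tamoxifen, coloured by role, with pale bars spanning the 2 libraries of each group. Fn1 and Vim end at 8924 and 7223, and Cd44 rises from 8.13 to 811 and crosses Thy1, Dcn and Postn.

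The genes were located with the GENCODE M39 annotation of GRCm39. Cd44 is at chr2:102641486-102732010 (minus strand), Vim at chr2:13578738-13587639 (plus) and Fn1 at chr1:71624673-71692419 (minus). Thy1 (chr9:43954332-43959880) and Nt5e (chr9:88209089-88254146) share chromosome 9, and S100a4 (chr3:90511074-90513354), Postn (chr3:54268501-54298471) and Mme (chr3:63148889-63293451) share chromosome 3, all on the plus strand. Dcn (chr10:97315275-97358155) and Lum (chr10:97400990-97408577) are next to each other among the tested protein-coding genes. Of the annotated genes that overlap a marker, Apol7d, a noncoding gene opposite Fn1, was the 1 listed in the table, at 42.5 and 41.3 in control and 28.2 and 5.75 with tamoxifen. How reads over such overlaps were assigned was not tested.

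Genes that work with the markers were counted by list. Over the 11 lists, 113 genes were tested, of which 65 were called higher (57.5%) and 21 lower (18.6%), beside 28.6% and 16% of all genes. A gene with a control mean under 10 normalized counts passed the filter only if it was higher with tamoxifen. In the lists these were Has2, Tnfaip6, Entpd3, Adora3, Mmel1, Phex, Kel, S100a5, S100a7a, Prph, Sync, Optc, Ngfr and Twist2. All of them but Adora3 were called higher, so these calls are not independent of the filter. The same filter applied to all genes. The lists differed in their balance, and in most of them the gene with the highest level was called lower with tamoxifen.

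**Figure D4:**
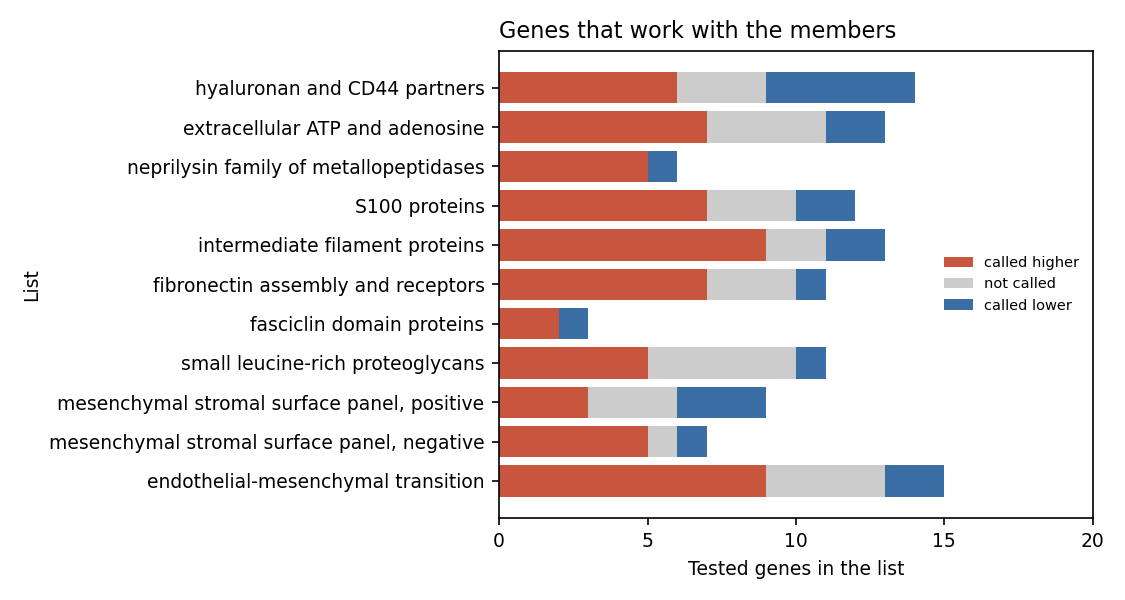
Number of tested genes in each list of partner genes that were called higher with tamoxifen (red), not called (grey) or called lower (blue). The list of hyaluronan and CD44 partners holds 6 higher and 5 lower genes, and that of intermediate filament proteins 9 higher and 2 lower.

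Of 14 genes of hyaluronan metabolism and CD44 binding, 6 rose and 5 fell (median log2 fold change 0.39). Spp1, which encodes osteopontin, a secreted CD44 ligand, was at 127 and 120.2 in control and at 37818 and 31141 with tamoxifen (log2 fold change 8.10). Hyal1, a hyaluronidase, fell (-1.77), as did Msn, encoding moesin, which links CD44 to actin (-1.34). Of 13 genes that handle extracellular ATP and adenosine, alongside Nt5e, 7 rose and 2 fell (median 2.36). The adenosine receptor gene Adora2b rose (27.4 and 17.5 against 451 and 661, log2 fold change 4.58). Entpd1 (CD39), which makes the AMP that CD73 uses, fell from 8118 and 7433 to 2001 and 1323 (-2.25), in the direction opposite to Nt5e.

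Of 6 relatives of neprilysin, 5 rose and Ece1 fell (median 3.52). Of the 5, Mmel1, Phex and Kel had control means of 0.63, 2.68 and 9.17 and passed the filter through the tamoxifen libraries. Kel, the Kell blood group protein of erythroid cells, was at 9.59 and 8.76 in control and 1178 and 869.9 with tamoxifen (log2 fold change 6.64). Ece1, the endothelin-converting enzyme, went from 42362 and 48399 to 10073 and 7532 (-2.38). All 5 erythroid markers examined rose, with a summed level of 17381 to 35081 in control and 101581 to 158663 with tamoxifen. The part of erythroid cells in the level of Kel was not tested.

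Of 15 S100 genes besides S100a4, 12 were tested, 7 rose and 2 fell (median 2.46). S100a9, a subunit of calprotectin in neutrophils, was at 84.9 and 80.1 in control and at 35787 and 28642 with tamoxifen (log2 fold change 8.58). S100a13 fell (-2.17). Of the 13 other intermediate filament genes, 9 rose and 2 fell (median 3.07), beside Vim at 0.10. Prph, encoding peripherin of peripheral neurons, rose from 1.37 and 6.26 to 268 and 242 (5.95). Nes, encoding nestin, which assembles with vimentin, fell from 36146 and 33620 to 9261 and 6929 (-2.12), and Synm, encoding synemin, fell by 2.46 on the log2 scale. Whether Vim differed from these 2 filament partners in its change was not tested.

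Of 11 genes of fibronectin assembly and its receptors, 7 rose and 1 fell (median 1.36). Tnc, encoding tenascin C, was at 112 and 98.9 in control and at 5918 and 6427 with tamoxifen (log2 fold change 5.86). Tgm2, the transglutaminase that crosslinks fibronectin, fell (-2.50). Itgb1, the beta subunit of the fibronectin receptor, was at 42181 and 38734 and at 24132 and 20370 (-0.87, adjusted p = 0.0121), which was under the size required for a call. In the fasciclin family of Postn, Tgfbi rose (4.08) and Stab1, a scavenger receptor, fell (-2.62), with 2 of 3 genes higher and 1 lower (median 1.81). Of 11 small leucine-rich proteoglycans tested besides Dcn and Lum, 5 rose and 1 fell (median 0.92). Ogn, osteoglycin, rose most (42.5 and 52.6 against 1447 and 895.7, log2 fold change 4.56), Bgn, biglycan, was the most abundant and rose by 1.74, and Ecm2 fell (-1.01). Kera and Epyc, whose genes neighbour Lum, were not in the table used here.

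Mesenchymal stromal cells are sorted by surface proteins that they carry and by others that they lack. Of 9 further surface genes that such cells carry, 3 rose and 3 fell (median -0.28). Ngfr rose (5.29), whereas Eng, which encodes endoglin and is high in endothelium, fell from 126152 and 157399 to 25846 and 12793 (-2.95), and Ly6a (Sca-1) fell most (-3.22). Of 7 genes of proteins that they lack, 5 rose and Cd34 fell (median 3.94). Cd79a, a component of the B-cell receptor, rose (21.9 and 31.3 against 870.3 and 615, log2 fold change 4.75), and Cd34 fell by 2.24 on the log2 scale. Of 15 genes of the endothelial-mesenchymal transition, 9 rose and 2 fell (median 2.73). Col1a1, the main chain of type I collagen, rose from 367 and 494 to 29952 and 23125 (5.95), and Sparc, a matrix protein abundant in endothelium, fell by 1.46. Also called higher were Snai1 (2.90), Twist1 (3.24), Twist2 (3.97), Zeb2 (2.73), Cnn1 (1.90), Col1a2 (4.29), Col3a1 (3.71) and Mmp2 (5.24). Snai2 also fell (-1.40). The genes of this list that were not called were Zeb1 (-0.53), Cdh2 (0.13), Acta2 (0.71) and Tagln (-1.43).

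Markers of other cell types were counted in the same way, beside the 28.6% and 16% of all genes called higher and lower. Of 10 fibroblast markers, 8 rose and 1 fell, with a summed level of 7355 to 8858 in control and 64311 to 74748 with tamoxifen, and Dpt was at 3 reads or fewer in both control libraries. All 10 neutrophil markers rose (summed level 725 to 1244 against 88836 to 119356). Of 8 listed markers of lymphocytes and B-cell precursors, 7 were tested and all 7 rose. The 8 summed to 68.5 to 92.6 against 2600 to 3552, and Cd3e, Cd3d, Igll1 and Rag1 were at 3 reads or fewer in both control libraries. Markers this low in control could be tested only if they were higher with tamoxifen. Of 11 microglia and macrophage markers 8 rose (1711 to 3250 against 5288 to 6169). Among neural cells, 6 of 8 neuronal markers rose (1749 to 2155 against 14554 to 23985), as did 6 of 6 astrocyte markers (27117 to 31486 against 134790 to 285980) and 4 of 6 markers of oligodendrocyte precursors, of which 1 fell (4765 to 6434 against 18935 to 47373). Of 8 markers of pericytes and smooth muscle 2 rose, and their summed levels overlapped between the groups (26030 to 45472 against 34997 to 67132). All 5 cycling genes rose (1004 to 1149 against 70679 to 72482), as did all 7 pluripotency genes (195 to 264 against 37275 to 46492), of which Utf1 was at 3 reads or fewer in both control libraries. Some of these genes are also counted in the partner lists above. They are 5 fibroblast, 2 neutrophil, 2 lymphocyte, 2 pericyte and smooth muscle markers and 1 astrocyte marker. The part of these cells in the levels of the 10 markers was not tested.

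Endothelial, fibroblast, neutrophil, lymphocyte, microglia, erythroid, pluripotency and cycling sums were higher in tamoxifen 1. So were all the markers except Nt5e, Postn and Lum. The neuronal, astrocyte, oligodendrocyte precursor and pericyte sums were higher in tamoxifen 2, as were those 3 markers. A link between any of these sums and the markers was not tested. This is a statement about a single pair of libraries and has no replicate.

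Among all other genes, those whose pattern over the 4 libraries was closest to the mean of the 10 markers were Prkaa2, Cotl1, Apoc1, Traf4 and Kirrel. Their Euclidean distances from that mean were 0.101, 0.117, 0.129, 0.133 and 0.134 on the log2 scale, and the mean of the markers lay 3.35 and 3.19 above the control mean in tamoxifen 1 and 2.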

How the data were processed

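RNA libraries were made with a stranded mRNA kit, and the submitters' processing notes name bcl2fastq, STAR 2.7.10a, DESeq2 1.36.0 and GRCm39. The strand setting of the counting is not given in the sources used here. The deposited values are a normalized signal, gene counts that the authors divided by a size factor for each library, and no other value column was left out. Every value came out as a whole number of reads (100% within 0.05 reads), so reads were recovered for edgeR and DESeq2. The 3 reads taken as the floor were worth 2.16 to 4.11 normalized counts.

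Here log2(value + 1) of genes with a mean of at least 10 was fitted with limma 3.58.1 (R 4.3.3, eBayes with trend, 2-sided, Benjamini-Hochberg over 20485 genes) for tamoxifen against control. The count of reads limits the precision only for low genes such as S100a4. The alternatives were other pseudocounts, filters and scalings, no trend, edgeR 4.0.16, DESeq2 1.42.0, a block on the replicate number, an adjusted p alone and each library left out. Replicates were not duplicates of each other (chi-square per degree of freedom 29.4 in control and 84.3 with tamoxifen). The fit was also run on simulated data in which few genes changed, unlike here, and no result given here rests on that run.

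The 10 markers and all lists were chosen with earlier results of these data known. All markers are named, and of each partner list the called gene with the largest log2 fold change in each direction and the most abundant gene, the 5 genes of most similar pattern, and Mgp, Pecam1 and Ptprc. Of the transition list, all genes are named. Promoters and gene lengths (union of exons) were read from GRCm39 with GENCODE M39.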

Additional observations from a re-analysis of the deposited data

How the results depend on the processing

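The count of called markers, 8, was 5 to 8 when 1 library was left out, with 5 (Cd44, Thy1, Mme, S100a4 and Dcn) without tamoxifen 2, and 7 to 9 in the other alternatives. Over all genes, 9151 were called, 5934 with a mean of at least 100 and 4979 to 10001 with 1 library left out. Cd44, Thy1, Mme and Dcn were called in all 15 alternatives, and S100a4 in the 14 in which it was tested. After quantile normalization the count was also 8, with Vim called and Nt5e not. The log2 fold change of Vim was -0.12 to 0.33 with 1 library left out, and Fn1 kept its sign in all 15 (-1.59 to -0.32). The cause of these shifts was not tested. With the replicate block 8 markers and 9525 genes were called. Samples with the same number share only that number (correlation of their deviations 0.0251). The spread rests on 2 pooled libraries per group, and with 1 library left out the lone library was assumed to vary like the other group. Depth limited S100a4 in control, at 1 and 2 reads.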

Other observations

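The 3 nearest tested protein-coding genes on each side of every marker were counted after the markers' values were seen, and no test was made of position. Of the 54 genes, markers left out, 24 were called higher (44.4%) and 3 lower (5.56%), beside 28.6% and 16% of all genes. The count called higher was 6 of 6 around Fn1, 5 around Thy1, 4 around Cd44, 3 each around Mme and S100a4, and 1 each around Nt5e and Vim, where Vim also had 2 called lower. Around Postn limma called 0 of 6 in either direction, as did edgeR and DESeq2, with 1 higher and 3 lower at an unadjusted p under 0.05. Next to S100a4 on chromosome 3, S100a6 was at 89.0 and 130.2 normalized counts in control and at 6839 and 5479 with tamoxifen (log2 fold change 5.82, adjusted p = 5.5e-06). S100a5 and S100a7a on the same side were also called higher, from few reads in control. On the other side S100a16 was called lower (-1.68), and S100a1 (-0.88) and S100a14 (-0.55) were not called. Besides each other, Dcn and Lum had Nudt4 called higher (1.98, adjusted p = 4.6e-05), at 1915 kb from Dcn, whereas Eea1 (-0.02), Btg1 (0.38), Atp2b1 (-0.73), Poc1b (-0.30) and Galnt4 (-0.66) were not called. Around Fn1, the nearest gene was Atic (2.80), 5.43 kb away.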
